A study of Danio rerio with 18 samples.

Results

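The question was whether the difference between cells of the central nervous system (CNS) and the rest of the zebrafish embryo is itself altered when Dicer is lost. For every gene the difference between GFP-positive and GFP-negative cells of a Dicer-mutant line was set against the same difference in a wild-type line, both on the log2 scale, with 3 arrays in each of the 4 groups and so 12 of the 18 arrays of the series. All probe sets other than controls with a single gene symbol were members, 10795 of 15502, and they held 8793 distinct symbols. Of these, 6831 genes passed a filter on low values and were tested, each by its brightest probe set. Other probe sets that passed the filter are given below only for the 12 largest rises and 12 largest falls. For further named genes, such as snai2 with 3 probe sets on the array, they were not compared. The 4 groups were wild-type GFP-negative cells (called the rest below), wild-type GFP-positive cells, which the labels give as CNS cells, and both fractions of the line the labels call a Dicer mutant and name MZ, an abbreviation they do not spell out. All were sorted by fluorescence from embryos at 14 to 16 somites raised at 28 °C, and both lines carry a reporter of miR-124. The sources used here give neither the element that drives GFP, nor the Dicer allele, nor how many embryos were pooled. The 3 arrays of a group are biological replicates per the labels, which all p-values take as given.

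Dicer is the ribonuclease that cuts microRNA precursors into mature microRNAs, which pair with messenger RNAs and lower their translation and stability. miR-124 is the most abundant microRNA of vertebrate neurons, and in mammals it is known to lower messengers of non-neuronal cell types. miR-430 is made by the early zebrafish embryo and clears maternal messengers. A change of CNS enrichment above 0 means that the log2 difference, CNS minus rest, was higher in the mutant than in wild type. Such a value can come from CNS cells, from the rest, or from both, so each gene named below as having passed comes with its levels, or with the log2 difference mutant minus wild type, in both fractions.

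Values are array intensities scaled by the authors, analysed as log2(intensity + 16). The added 16 shrinks differences between dim values, so it can understate or overstate a change of enrichment where a group is dim. Within the 6 groups, replicate arrays correlated at r = 0.962 to 0.990. Both CNS fractions held the markers of the labelled tissue. The summed intensity of 5 CNS markers (sox3, sox19a, nr2e1, pax6a and elavl3) lay at 6382 to 6875 in wild-type CNS cells against 1911 to 2279 in the rest, and at 6149 to 7057 in mutant CNS cells against 2416 to 3603 in the rest. Summed epidermal, neural crest and endothelial markers were higher on every mutant than on every wild-type CNS array. The endothelial markers fli1 and kdrl summed to 60.3 to 100 in wild-type and 103 to 244.5 in mutant CNS cells. Single markers did not all go this way. The crest marker crestin had a mean of 335 in wild-type and 249 in mutant CNS cells, and fli1 and the epidermal krt5 overlapped between these fractions. Values for the epidermal and crest markers stand beside those genes below. Markers of muscle and red blood cells were at most 165 and 64.8 in either CNS fraction. In the rest, the 4 red blood cell markers summed to 6533 to 7344 in wild type and 1348 to 2863 in the mutant, and the 3 presomitic markers to 1424 to 3018 and 3296 to 4777. The GFP-negative fractions thus differed in marker content between the lines. In such sorted bulk samples, fewer cells of a type and less RNA per cell cannot be told apart.

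CNS enrichment spanned a narrower range in the mutant than in wild type. The middle 90% of the 9548 features tested (from the 5th to the 95th percentile) spanned -1.48 to 0.78 in wild type and -0.93 to 0.60 in the mutant. The enrichments of the lines, which share no array, correlated at r = 0.834 across features, as a description. In wild type 3129 features (32.8%) passed limma's test between CNS cells and rest, 1385 higher (14.5%) and 1744 lower (18.3%), against 1482 (15.5%) in the mutant, 620 higher (6.49%) and 862 lower (9.03%).

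The test of the difference itself, limma's interaction term with Benjamini-Hochberg adjustment at 0.05, passed for 246 of 9548 features, or 2.58%. Of these, 217 (2.27%) were higher in the mutant and 29 (0.304%) lower. Among the 6831 genes, 169 rose in CNS enrichment and 23 fell, and the other 54 calls belonged to features without a single gene. The median over all features was 0.00 and the median SE 0.24. An unadjusted p under 0.05 was reached by 1302 of the 9548 features in limma. Counts of list members at that level, given below, are to be read against this share. The total depended on single arrays: it was 141 without wild-type CNS replicate 1, 152 without mutant CNS replicate 1, 159 without mutant rest replicate 1 and 158 without mutant rest replicate 3.

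**Figure D1:**
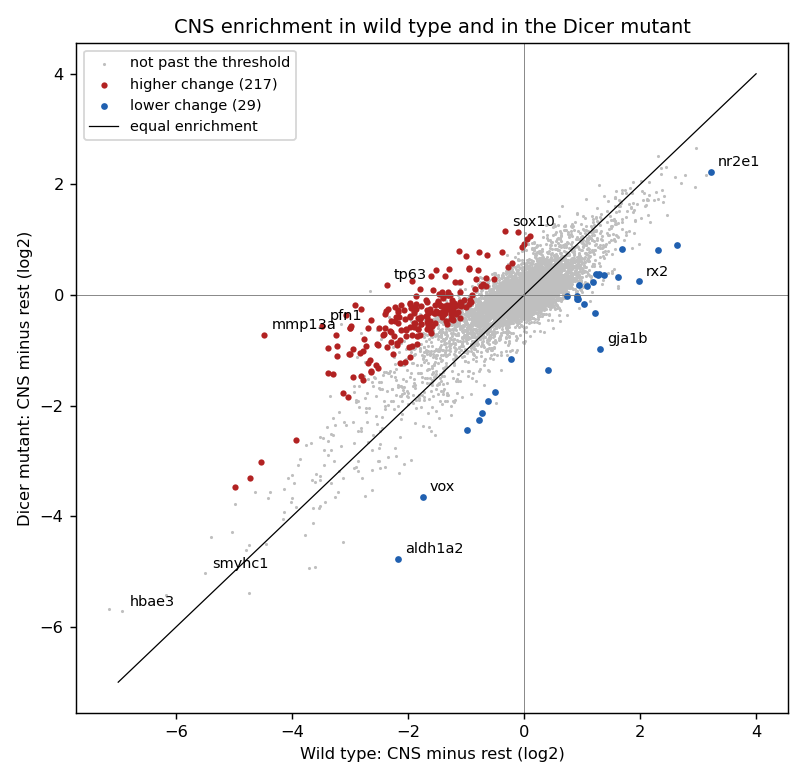
CNS minus rest (log2) in wild type on the horizontal axis and in the Dicer mutant on the vertical axis, 1 point per feature, with the line of equal enrichment. Red points are the 217 features with a higher change and blue points the 29 with a lower change. Nearly all red points lie left of 0 on the wild-type axis, a side that the choice favours, since the change subtracts the wild-type value.

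The genes that rose were genes poor in wild-type CNS cells. Of the 169, 168 had a wild-type enrichment below 0, with a median of -1.78, and their median in the mutant was -0.34. The change was the larger in the CNS fraction for 96 of them and in the rest for 73. Their median mutant-minus-wild-type difference was 0.73 in CNS cells and -0.54 in the rest. Among the 23 that fell, 16 had a wild-type enrichment above 0 and 7 below. Their median went from 0.93 in wild type to -0.08 in the mutant, and the larger part lay in CNS cells for 13 and in the rest for 10. These counts describe genes already chosen by the test, and the wild-type enrichment enters the tested change with a minus sign. The choice itself thus favours low wild-type values among rises and high ones among falls, so the counts and medians are a description only. The sizes that passed ran from 0.70 to 3.77 for rises and from 0.75 to 2.58 for falls.

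**Figure D2:**
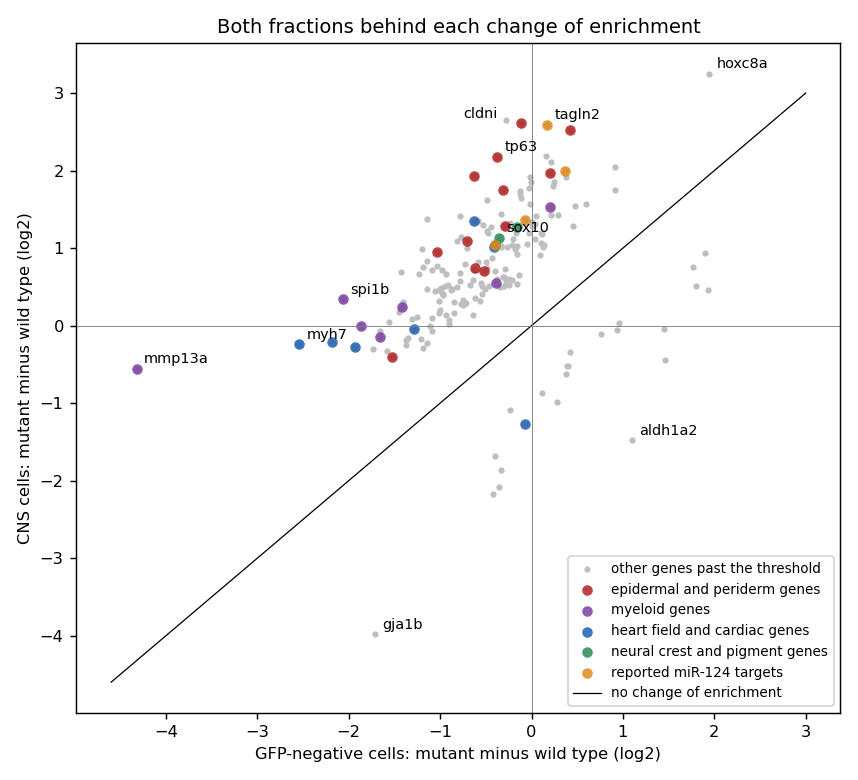
The 192 genes past the threshold, with the mutant-minus-wild-type difference (log2) in GFP-negative cells on the horizontal axis and in CNS cells on the vertical axis; points above the diagonal rose in CNS enrichment. The epidermal genes past the threshold (red) lie mostly high, by a difference in CNS cells. Over all 36 tested epidermal genes the median difference was 0.54 in CNS cells and -0.62 in the rest. Most myeloid and cardiac genes (purple and blue) lie to the left, by a difference in the rest.

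Among the gene lists, that of the skin held the highest number of rises, though not the highest share of its members. Of 36 tested genes of epidermis and periderm, the outer layer of the embryonic skin, 12 rose and 0 fell, against 2.27% of all features that rose, and all 36 had a change above 0, with a median of 1.18 (unadjusted p under 0.05 in 31). The list's median enrichment was -1.79 in wild type and -0.38 in the mutant. Its median mutant-minus-wild-type difference was 0.54 in CNS cells and -0.62 in the rest. In CNS cells all 3 mutant arrays lay above all 3 wild-type arrays for 17 members, against 29.9% of all features, and in the rest below them for 14, against 22.8%. Of the 36, 7 passed the filter on low values only through the wild-type GFP-negative arrays, and with no filter 11 of 43 rose, with a median of 1.12. The rises held adhesion, cytoskeleton and transcription factor genes. The count was 8 without mutant CNS replicate 1, with a median of 1.10, 20 without wild-type rest replicate 1, and 7 with a pseudocount of 1.

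tp63, the transcription factor gene of basal epidermis, stood at 205, 430.5 and 328 in the wild-type rest and 30.6, 66.7 and 47.6 in wild-type CNS cells. In the mutant it stood at 190.2, 334 and 199 in the rest and 381, 222 and 226 in CNS cells. The CNS fractions of the lines did not overlap, and in the mutant the fractions overlapped each other. Its enrichment rose from -2.37 to 0.19, a change of 2.56 (SE 0.42, limma adjusted p = 0.00178). A second, dimmer probe set of tp63 gave 0.83 (limma adjusted p = 0.245) and did not pass, and with a pseudocount of 1 the adjusted p was 0.0503.

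cldni, a claudin of tight junctions, was at 135, 348 and 149 in wild-type CNS cells and 1677, 1040.2 and 1133 in mutant CNS cells. The rest held 1415, 1536 and 1711 in wild type and 1246, 1814 and 1279.8 in the mutant, ranges that overlap. The change of 2.73 (SE 0.50, limma adjusted p = 0.00375) thus lay in CNS cells. For cdh1, the epithelial cadherin, CNS cells went from 50.2, 119.6 and 109 to 381, 335 and 291 against 521, 535 and 547 and 395, 557 and 354 in the rest, a change of 2.06 (SE 0.32, limma adjusted p = 0.00142). gpa33a, an immunoglobulin-like protein of epithelial membranes, changed by 2.56 (SE 0.43, limma adjusted p = 0.00211), with 69.4, 158 and 101 in wild-type and 535, 438 and 370 in mutant CNS cells, while its rest differed by -0.63 with overlap. The keratin gene krt8 read 101, 146 and 87.5 in wild-type and 371, 190.3 and 219.7 in mutant CNS cells and 767, 730.2 and 945 and 469.8, 513 and 484 in the rest. Both of its fractions were non-overlapping between the lines, in opposite directions, and its change was 1.80 (SE 0.28, limma adjusted p = 0.00151). krt4 and krt5, keratins of the outer layer, had changes of 2.13 (SE 0.61, limma adjusted p = 0.0716) and 1.93 (SE 0.61, limma adjusted p = 0.117) and did not pass. In krt5 the wild-type rest alone ranged from 104 to 504.

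In mutant CNS cells these genes were highest on the first array for tp63, cldni, gpa33a, cdh1, krt8 and krt4. The summed intensity of the 6 epidermal markers, all of which are also in the list, was 579 to 1087 in wild-type CNS cells, 4498 on that array and 2577 and 2798 on the other mutant CNS arrays. In the rest it was 4426 to 6255 in wild type and 3848 to 5366 in the mutant. The first mutant CNS array was also highest for summed muscle (129 against 61.8 and 68.3), presomitic (396 against 85.8 and 114) and endothelial markers (244.5 against 170 and 103). The same held for red blood cell markers, but not for CNS, myeloid or crest markers. Among genes described below, it held for pfn1, tagln2, cavin2b, ccn2a, postnb, col1a1a, snai2 and foxd3, but not for mmp2 or sox10. The part of skin cells among the sorted cells in the result was not tested.

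**Figure D3:**
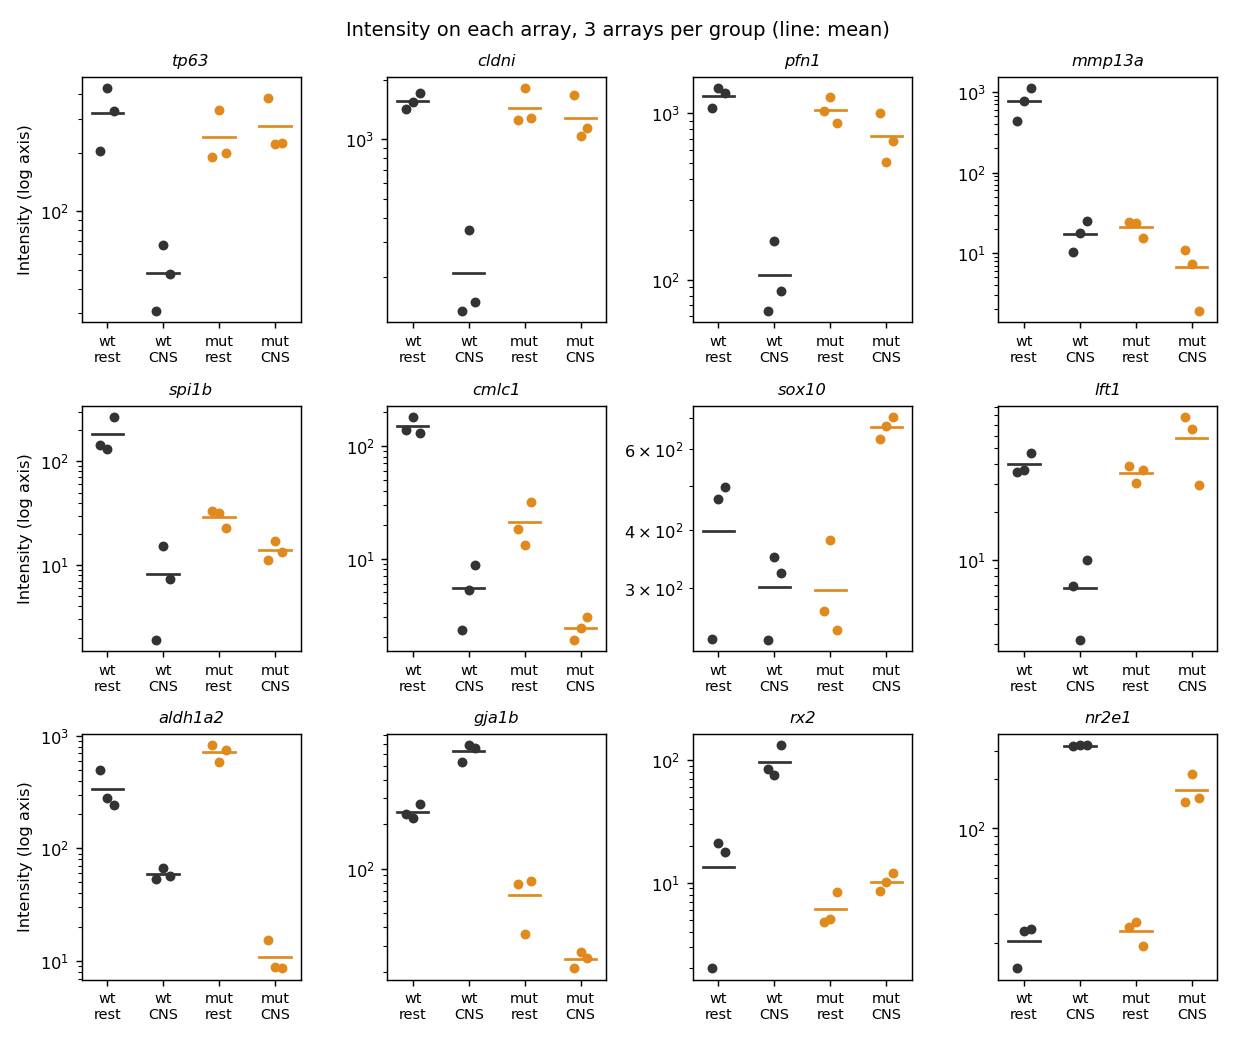
Intensity (log axis) on each of the 3 arrays of the 4 groups for 12 genes, with the mean as a line; wild type is dark and the mutant orange. tp63, cldni, pfn1 and lft1 are low in wild-type CNS cells alone, mmp13a, spi1b and cmlc1 are high in the wild-type rest alone, and gja1b and rx2 are high in wild-type CNS cells.

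Several of the largest rises were cytoskeletal and matrix genes outside the skin list. pfn1, the actin-binding profilin, was at 64.5, 169 and 85.7 in wild-type CNS cells and at 1007, 513 and 677 in mutant CNS cells. Its rest held 1078, 1419 and 1322 in wild type and 1028, 1255 and 873 in the mutant, and only the CNS fractions were apart. The change was 2.93 (SE 0.41, limma adjusted p = 0.00083). tagln2, a transgelin that binds actin, went from 33.3, 98.5 and 55.8 to 607, 325 and 400.2 in CNS cells, a change of 2.42 (SE 0.39, limma adjusted p = 0.00163), and its rest overlapped with a difference of 0.17. cavin2b, a coat protein of caveolae, read 143, 292 and 228 in wild-type and 705, 524 and 559 in mutant CNS cells and changed by 2.19 (SE 0.39, limma adjusted p = 0.0031). Its rest differed by -0.78 with overlap, and its other probe set gave 0.95 and did not pass (limma adjusted p = 0.106). ccn2a, a secreted matrix-associated growth regulator, changed by 2.10 (SE 0.30, limma adjusted p = 0.000871), from 169, 344 and 253 to 1003, 746 and 649.8 in CNS cells, with the rest overlapping at a difference of -0.48.

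Of 22 extracellular matrix genes 3 rose, against 2.27% of all features, and 0 fell, with a median of 0.43 and 20 above 0. The count was 5 without wild-type rest replicate 2. Of the 22, 3 passed the filter on low values only through GFP-negative arrays. With no filter 3 of 23 rose and the median was 0.42. postnb, a periostin, was at 909, 868 and 998 in the wild-type rest and 52.8, 126 and 84.9 in wild-type CNS cells, and at 353, 385 and 505 and 307, 216 and 213 in the mutant. The gap between the fractions narrowed from both sides, and the change was 2.51 (SE 0.38, limma adjusted p = 0.00118). A second probe set of postnb passed too (2.20, limma adjusted p = 0.00665). The collagen gene col1a1a differed in CNS cells alone, 35.4, 51.8 and 36 against 259, 158 and 186, with a change of 1.93 (SE 0.37, limma adjusted p = 0.00537) and a difference of -0.02 in the rest. mmp2, a gelatinase, was higher in both mutant fractions and more so in CNS cells, from 29.4, 42.1 and 43.6 to 208, 180.1 and 236 against 111, 127 and 119 to 196, 240.2 and 284 in the rest, with a change of 1.14 (SE 0.22, limma adjusted p = 0.00662). col1a2 had a change of 1.53 (SE 0.45, limma adjusted p = 0.081) and col2a1a, the cartilage and notochord collagen, 0.24 (SE 0.22, limma adjusted p = 0.707), and neither passed.

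Neural crest cells leave the dorsal neural tube and form pigment cells, peripheral neurons and glia. The 11 tested crest and pigment genes had 3 rises, against 2.27% of all features, and 0 falls, with 8 above 0 and a median of 1.0. Without the filter on low values 2 of 16 rose and the median was 0.16. foxd3, an early crest factor, read 175, 252 and 227 in the wild-type rest and 176, 223 and 179 in the mutant rest, which overlap. In CNS cells it read 28.9, 48.7 and 45.4 and 157, 99 and 111, without overlap, for a change of 1.44 (SE 0.29, limma adjusted p = 0.00868). snai2, a factor of crest migration, went from 47.1, 79.2 and 76.5 to 172, 158 and 131 in CNS cells, a change of 1.44 (SE 0.25, limma adjusted p = 0.00257). Its rest was lower in the mutant by a smaller log2 difference of -0.40, without overlap.

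sox10, needed for pigment and glial lineages, was at 232, 467 and 495 in the wild-type rest and 231, 349.6 and 322 in wild-type CNS cells, ranges that overlap. In the mutant it was at 267, 380.5 and 242 and 631, 674 and 706, with every CNS array above every rest array. The change of 1.49 (SE 0.37, limma adjusted p = 0.0335) lost its call without any 1 of 9 of the 12 arrays, at adjusted p between 0.0572 and 0.123 in limma, and the pseudocount of 1 gave 0.181. crestin, a crest-specific transcript, had 300.4, 359 and 345 in wild-type and 251, 251 and 246 in mutant CNS cells and a change of -0.01 (SE 0.44, limma adjusted p = 0.996). The summed level of the 3 crest markers was 560 to 758 in wild-type and 1024 to 1062 in mutant CNS cells, and the part of crest cells in the result was not tested.

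For 6 features of 9548 (0.0628%) the enrichment passed in both lines but in opposite directions, and all 6 were named genes. Of these, 5 were lower in CNS cells than in the rest in wild type and higher in the mutant. podxl, the membrane sialomucin podocalyxin, was at 640, 757 and 678 in the rest and 365, 312 and 339.7 in CNS cells of wild type, and at 394, 279 and 359.6 and 466, 537 and 727 in the mutant. The fractions did not overlap in either line, and their order was turned, with a change of 1.70 (SE 0.25, limma adjusted p = 0.000925).

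ptgs2a, an inducible prostaglandin synthase, went from -1.12 to 0.80 in log2 enrichment, with 18.4, 30.8 and 27.8 in wild-type and 88.5, 81.6 and 59.1 in mutant CNS cells. Its rest was apart too, with a difference of -0.78, and its change was 1.92 (SE 0.27, limma adjusted p = 0.00083). tmc6b, a transmembrane channel-like gene, was at 161, 213 and 169 in the wild-type and 85, 103 and 78.1 in the mutant rest and at 87.4, 88.6 and 82.1 and 138, 112 and 144 in CNS cells. Its enrichment went from -0.94 to 0.50 by opposite differences in the fractions (change 1.44 (SE 0.22, limma adjusted p = 0.00137)).

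thbs1b, a thrombospondin of the matrix, was at 19.3, 19.2 and 22 in wild-type and 139, 107 and 117 in mutant CNS cells, which are apart, and at 38.1, 60.2 and 41.1 and 44.1, 96.2 and 59.9 in the rest, which overlap. Its enrichment went from -0.77 to 0.77 (change 1.54 (SE 0.28, limma adjusted p = 0.00336)). gpm6ab, a neuronal membrane glycoprotein, read 28.7, 52.9 and 52.6 in wild-type and 85.5, 135 and 102 in mutant CNS cells, a turn from -0.64 to 0.72 and a change of 1.36 (SE 0.28, limma adjusted p = 0.00951), with the rest overlapping at -0.33. The changes of all 5 passed when any 1 array was left out.

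The sixth, gja1b, moved the other way. It encodes the gap junction protein connexin 43 and is a reported mammalian target of the muscle microRNAs. It was at 234, 219.9 and 274 in the wild-type rest and 524, 685 and 660.2 in wild-type CNS cells. The mutant held 78.9, 35.8 and 82.9 in the rest and 21, 27.1 and 24.8 in CNS cells. Every mutant array lay below every wild-type array of the same fraction, and the drop was the larger in CNS cells, so that enrichment fell from 1.30 to -0.97, a change of -2.27 (SE 0.37, limma adjusted p = 0.00179).

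Several myeloid genes rose in CNS enrichment with a lower level in the mutant rest. Of 14 on the array 8 passed the filter on low values, 6 of them only through GFP-negative arrays, where they are high. For 4 it was only through the wild-type GFP-negative arrays, which favours a lower mutant rest. The counts of these genes are thus a description. Of the 8, 7 rose, against 2.27% of all features, and 0 fell, and the median change was 1.59. In the rest all 3 mutant arrays lay below all wild-type arrays for 7, against 22.8%. With no filter the count was 7 of 14 and the median 0.76, and with a filter at the 60th percentile 3 rose. mmp13a, a collagenase, had the largest change of all named genes. It was at 431, 770.5 and 1119 in the wild-type rest and 24.6, 23.4 and 15.2 in the mutant rest, and at 10.2, 17.6 and 24.7 and 11, 7.3 and 1.9 in the CNS fractions. The GFP-negative cells of a second wild-type line, sorted for a miR-206 muscle reporter, held 408, 679 and 628. That fraction is another mix of cells than the first wild-type rest. Its means were 58.3 against 1113.5 for the muscle gene smyhc1 and 2684.7 against 1458.8 for the CNS gene sox3. That fraction did not match the first wild-type rest for every gene. It held 270, 320.5 and 365 of podxl, which overlapped the mutant rest but not the first wild-type rest. For spi1b it held 28.9, 98.4 and 117, below the first wild-type rest. Other genes were not set against it here. The enrichment of mmp13a went from -4.48 to -0.72, a change of 3.77 (SE 0.42, limma adjusted p = 8.7e-05).

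spi1b, the PU.1 factor gene of myeloid fate, read 142, 133 and 269 in the wild-type and 33.5, 31.9 and 22.6 in the mutant rest, with a difference of 0.34 in CNS cells, with overlap, and a change of 2.41 (SE 0.45, limma adjusted p = 0.0043), and its other probe set gave 1.15 (limma adjusted p = 0.0649). cebpa, a factor of granulocyte development, read 889.5, 626 and 1005 and 276, 269 and 210.5 in the rest, with 8.6, 12.8 and 10.8 and 6.8, 8.5 and 9.1 in CNS cells, and a change of 1.51 (SE 0.27, limma adjusted p = 0.0031). lcp1, a leukocyte plastin, was at 19.6, 54.2 and 81.4 in the wild-type rest and at 1.1, 0.5 and 1.9 in the mutant rest with CNS cells at 1.3, 0.8 and 1.3 and 0.6, 1.3 and 1.2 (change 1.86 (SE 0.40, limma adjusted p = 0.0132)). ncf1, an oxidase subunit of phagocytes, read 33.3, 69.4 and 106 and 10.7, 14 and 18 in the rest, which are apart, and 9.4, 9.8 and 14.3 and 13.5, 15.5 and 19.5 in CNS cells, which overlap, and changed by 1.66 (SE 0.34, limma adjusted p = 0.0101). In all of these genes every CNS array lay at 24.7 or below, close to the pseudocount. The size of the change is therefore set by the rest and by the pseudocount: with 1 the list's median was 2.53 and 5 members passed, with 64 it was 0.81 and 7 passed. The 3 myeloid markers summed to 813 to 1356 in the wild-type rest and 235 to 310 in the mutant rest.

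Red blood cell and vessel genes had changes above 0 without passing. Of 18 erythroid genes, 9 of which passed the filter only through GFP-negative arrays, all 18 lay above 0, with a median of 0.74, and 0 passed in limma (6 at an unadjusted p under 0.05). hbae3, an embryonic globin, was at 3956, 4847 and 4431 in the wild-type rest and 1129.7, 493 and 1434 in the mutant rest, and at most 35 in any CNS array. Its change was 1.22 (SE 0.95, limma adjusted p = 0.649). The mean of hbae3 fell by the larger factor in CNS cells, from 23.7 to 2, against 4411 to 1019 in the rest. The sign of its change is therefore set by the pseudocount. The erythroid median lay at 0.39 to 0.79 under the other settings with all arrays. Of 8 endothelial genes, 3 with such a pass, all lay above 0 (median 0.86) and 0 passed, with 6 at an unadjusted p under 0.05. kdrl, a receptor for vascular growth factor, read 34.7, 71.3 and 40.9 in wild-type and 199.6, 128 and 72.4 in mutant CNS cells, with a change of 1.30 (SE 0.60, limma adjusted p = 0.342). Under the other settings tried, up to 4 of the endothelial and up to 2 of the erythroid genes passed.

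Heart genes differed in the fraction behind their change. Of 11 tested heart field and cardiac genes 6 rose and 1 fell, against 2.27% and 0.304% of all features, with a median of 1.25. Of the 11, 7 passed the filter only through GFP-negative arrays, so these counts are a description. For 4 it was only through the wild-type GFP-negative arrays, which favours a lower mutant rest. With no filter the counts were 6 and 1 of 15 and the median 0.38. The 4 contractile genes were low in the mutant rest. cmlc1, a cardiac myosin light chain, was at 138, 181 and 129 in the wild-type rest and 18.3, 13.1 and 31.5 in the mutant rest, and at most 8.7 in CNS cells. The wild-type and mutant rest did not overlap, and the change was 1.97 (SE 0.25, limma adjusted p = 0.000244). myh7, a ventricular myosin heavy chain, read 255, 201 and 189 and 24, 16.6 and 30.8 in the rest, with a difference of -0.24 in CNS cells (change 2.30 (SE 0.33, limma adjusted p = 0.000871)). myl7, a cardiac myosin light chain, read 109, 103 and 97.8 and 14.4, 8.7 and 24.2 in the rest and 11.2, 2.3 and 1.1 and 1.2, 0.9 and 0.6 in CNS cells and changed by 1.66 (SE 0.30, limma adjusted p = 0.00373). The troponin gene tnnt2a read 116, 99.9 and 92.6 and 41.5, 25.7 and 31.9 in the rest and 1.7, 0.9 and 1.1 and 0.8, 1 and 0.5 in CNS cells and changed by 1.25 (SE 0.28, limma adjusted p = 0.0164). In both genes the rest was apart between the lines and CNS cells overlapped. With a pseudocount of 1 all 4 lost the call (limma adjusted p 0.083 for cmlc1, 0.102 for myh7, 0.451 for myl7 and 0.295 for tnnt2a), and 1 of 11 members passed.

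Of the heart field transcription factors on the list, hand2 and isl1a rose, tbx2b fell, and gata5 (-0.18, limma adjusted p = 0.875), gata6 (0.38, limma adjusted p = 0.443) and mef2ca (0.38, limma adjusted p = 0.699) did not pass. hand2 was at 20.9, 34.8 and 36.5 in wild-type and 94.9, 78.2 and 61.7 in mutant CNS cells, far below the rest at 1566, 1040 and 1098 and 1074, 803 and 878. Its change was 1.42 (SE 0.27, limma adjusted p = 0.00558). nkx2.7, a homeobox factor of heart and pharynx that is not on the list, read 205, 166 and 184 and 68, 77.1 and 69.1 in the rest and 17, 16.6 and 15 and 67.5, 38.5 and 41.7 in CNS cells. Neither fraction overlapped between the lines, they moved in opposite directions, and the change was 2.19 (SE 0.27, limma adjusted p = 0.000228). tbx2b, a T-box repressor active in heart and eye, read 389.8, 307 and 409.5 in wild-type and 174, 141 and 118 in mutant CNS cells, with a difference of -0.07 in the rest (change -1.20 (SE 0.29, limma adjusted p = 0.0294)), a call lost without any 1 of 7 arrays (adjusted p 0.0632 to 0.0949).

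Sarcomere genes of muscle were depleted from CNS cells in both lines. All 24 tested passed as lower in wild type and 22 in the mutant, against 18.3% and 9.03% of all features. Of the 24, 2 passed the filter on low values only through GFP-negative arrays, 1 only through wild-type ones, which favours depletion from CNS cells. In the test of the difference 3 of the 24 rose, against 2.27% of all features, and 0 fell, with a median of 0.30. With no filter on low values 3 of 31 rose and the median was 0.23. Both myh7 and tnnt2a, 2 of the 3, are counted in the heart list as well. The third, acta1a, a skeletal actin, read 2274, 2431 and 2965 in the wild-type and 1645, 1298 and 1686 in the mutant rest and 64.8, 144 and 88.9 and 278, 139 and 139 in CNS cells. Its change of 1.52 (SE 0.35, limma adjusted p = 0.0194) lost the call without any 1 of 5 arrays (adjusted p 0.0522 to 0.0758). smyhc1, a slow myosin heavy chain, had 0.47 (SE 0.44, limma adjusted p = 0.714) and the actin gene actc1a 0.75 (SE 0.44, limma adjusted p = 0.497). Of 11 myogenic factor and fusion genes 0 passed and 0 had an unadjusted p under 0.05 in limma, with myod1 at -0.13, myf5 at -0.70 and myog at -0.30.

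Among trunk and tail genes, aldh1a2, which makes retinoic acid in paraxial mesoderm, had the largest fall of all named genes. It was at 494, 281 and 242 in the wild-type and 820.5, 586 and 752 in the mutant rest, and at 53.5, 66.7 and 56.9 and 15.4, 8.9 and 8.6 in CNS cells. Both fractions were apart between the lines, in opposite directions and with the larger difference in CNS cells, and enrichment fell from -2.18 to -4.77, a change of -2.58 (SE 0.29, limma adjusted p = 9.53e-05). It was the single call among 19 tailbud and presomitic genes, against 0.304% of all features that fell. Their median was -0.48, with 13 below 0 (5 of them at an unadjusted p under 0.05). tbx16, a T-box factor of presomitic mesoderm, read 439, 254 and 163 in the wild-type and 808, 724 and 1334 in the mutant rest, with a change of -1.33 (SE 0.57, limma adjusted p = 0.288), and tbxta, the brachyury gene of the tail, had -0.63 (SE 0.32, limma adjusted p = 0.402), and neither passed. vox, a repressor of dorsal fate, was at 251, 265 and 155 and 777, 447 and 713 in the rest, with a difference of -0.44 in CNS cells, and its change of -1.90 (SE 0.44, limma adjusted p = 0.0207) lost the call without any 1 of 7 arrays (adjusted p 0.0526 to 0.0718).

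Of 33 hox genes, which pattern the body axis, 1 rose and 1 fell, against 2.27% and 0.304% of all features. Their median was -0.16, and 3 of the 33 passed the filter on low values only through GFP-negative arrays. In the rest all 3 mutant arrays lay above the wild-type arrays for 22 of the 33, and in CNS cells for 13, against 23.3% and 29.9% of all features. hoxc8a was at 999.8, 669.9 and 812 in the wild-type and 3138, 3279 and 3163 in the mutant rest. CNS cells held 96.5, 188 and 106 and 1657, 1147 and 1223, the larger difference on the log2 scale. Its change of 1.30 (SE 0.32, limma adjusted p = 0.03) lost the call without any 1 of 8 arrays (adjusted p 0.0513 to 0.11). hoxa9b read 37.4, 19.5 and 26 in the wild-type and 129, 131 and 142 in the mutant rest and 12.1, 15.8 and 8.7 and 37, 18.4 and 19 in CNS cells, a change of -1.29 (SE 0.24, limma adjusted p = 0.00479) that did not pass with a pseudocount of 1 (adjusted p 0.09).

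**Figure D4:**
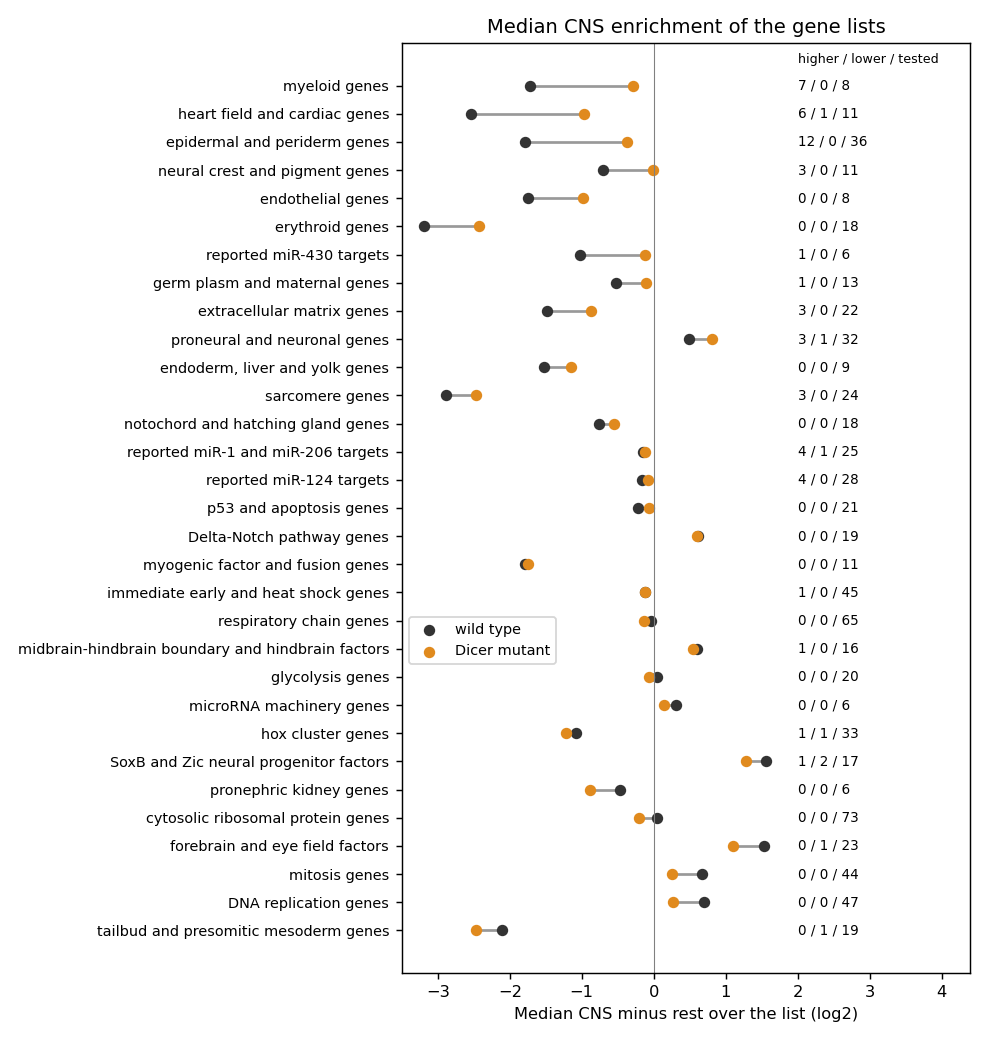
Median CNS minus rest (log2) of 31 gene lists in wild type (dark) and in the mutant (orange), ordered by the median change, with the number of members that rose, fell and were tested at the right. Lists of non-neural tissues at the top lie nearer to 0 in the mutant, as do DNA replication and mitosis genes near the bottom, and neural lists lie on the positive side.

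Genes that define CNS cells were enriched in both lines. The SoxB and Zic list of neural progenitor genes had 17 tested members, and it also holds nr2e1, cdh2, fabp7a and hmgb3a. Of the 17, 15 passed as enriched in each line, against 14.5% of all features in wild type and 6.49% in the mutant. Their median enrichment was 1.56 in wild type and 1.28 in the mutant. In the test of the difference 1 rose and 2 fell, against 2.27% and 0.304% of all features. The 2 that fell, nr2e1 and cdh2, are neither SoxB nor Zic genes. sox2 was at 554, 619 and 729 in wild-type and 661, 748 and 707 in mutant CNS cells, and its change was 0.06 (SE 0.25, limma adjusted p = 0.965). sox3 had -0.39 (SE 0.39, limma adjusted p = 0.737) and sox19a -0.72 (SE 0.39, limma adjusted p = 0.447). sox1a, the single rise, read 89.9, 102 and 128 in the wild-type and 62.3, 43.8 and 50.1 in the mutant rest, which are apart. In CNS cells it read 70.6, 69.8 and 95.7 against 105, 95.1 and 99.4, which overlap, and its change of 1.15 (SE 0.23, limma adjusted p = 0.00893) did not pass with a pseudocount of 1 (adjusted p 0.223).

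nr2e1, the tailless factor of forebrain stem cells, was at 321, 323 and 322 in wild-type and 146, 215 and 153 in mutant CNS cells, without overlap, and at 13.9, 23.5 and 24.3 and 24.8, 26.7 and 19 in the rest. Its change of -0.99 (SE 0.25, limma adjusted p = 0.0341) lost the call without any 1 of 8 arrays (adjusted p 0.0688 to 0.111). cdh2, the neural cadherin, was at 2179.6, 2040.3 and 1845 in wild-type and 1604, 1688 and 1501 in mutant CNS cells, which are apart, and at 1584, 1098 and 1012 and 1695, 1458 and 1721 in the rest, which overlap. It went from 0.73 to -0.02 in enrichment, a change of -0.75 (SE 0.19, limma adjusted p = 0.0394) lost without any 1 of 9 arrays (adjusted p 0.0613 to 0.124).

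Of 23 forebrain and eye field factors 21 passed as enriched in wild type, against 14.5% of all features. In the mutant 18 did, against 6.49%, and 1 fell in the test of the difference, against 0.304%. The list's median change was -0.33, with 17 below 0. In CNS cells all mutant arrays lay below all wild-type arrays for 13 of the 23, against 26.2% of all features. rx2, a retinal homeobox factor, was at 83.9, 76.1 and 132 in wild-type and 8.6, 10.2 and 11.9 in mutant CNS cells. The CNS fractions were apart by a wide gap, and the rest held 2, 20.9 and 17.8 and 4.8, 5.1 and 8.4, which overlap. Its change was -1.72 (SE 0.32, limma adjusted p = 0.0043), and with a pseudocount of 1 it did not pass (adjusted p 0.174). otx1 and otx2b, head patterning factors, had -0.08 (SE 0.30, limma adjusted p = 0.958) and 0.16 (SE 0.27, limma adjusted p = 0.875).

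The midbrain-hindbrain and hindbrain factors had 1 rise among 16, against 2.27% of all features, and a median of -0.07. That rise was irx7, an Iroquois factor, at 281, 222 and 262 in the wild-type and 115, 145 and 96.8 in the mutant rest, with 72.5, 78.8 and 95.2 and 143, 126 and 93.1 in CNS cells. Its change was 1.48 (SE 0.34, limma adjusted p = 0.0187), lost without any 1 of 4 arrays (adjusted p 0.0505 to 0.0657). The engrailed genes of the midbrain-hindbrain boundary were lower in mutant CNS cells, en2a at 190.5, 226 and 138 against 371, 297 and 292 and en2b at 449, 638 and 438 against 792, 752 and 823. Their changes of enrichment, -1.0 (SE 0.37, limma adjusted p = 0.207) and -0.95 (SE 0.36, limma adjusted p = 0.21), did not pass.

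Among 32 proneural and neuronal genes 3 rose and 1 fell, against 2.27% and 0.304% of all features. A change above 0 was seen in 22, and the median was 0.41. The number of rises was 1 without wild-type CNS replicate 1 and 5 without wild-type rest replicate 1. isl1a, a LIM homeobox factor of motor and sensory neurons that is also in the heart list, was at 45.7, 50.2 and 117 in wild-type and 216, 224 and 144 in mutant CNS cells, without overlap, with the rest overlapping at a difference of -0.63, and changed by 1.98 (SE 0.43, limma adjusted p = 0.0134). Without wild-type CNS replicate 1 its adjusted p was 0.0539. isl2a, a related factor of motor and sensory neurons, went from 10.3, 21.1 and 14 to 87.1, 53.4 and 50.4 in CNS cells, with a difference of 0.00 in the rest and a change of 1.34 (SE 0.26, limma adjusted p = 0.00578). Both genes were depleted from CNS cells in wild type, at -1.53 and -2.20. tagln3b, a neuronal transgelin in mammals, read 24.2, 34 and 38 in wild-type and 59.1, 52.7 and 58.3 in mutant CNS cells and 172, 177 and 162 and 141, 136 and 148 in the rest, both apart. It changed by 0.85 (SE 0.20, limma adjusted p = 0.0216) and lost the call without any 1 of 5 arrays (adjusted p 0.0514 to 0.0827).

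tubb5, a beta tubulin, was the one that fell. It was at 614, 748 and 701 in the wild-type rest and 2719, 2403 and 2030.1 in the mutant rest, and at 2254, 1528 and 1732 and 2981, 3579 and 2698 in CNS cells. Its mutant level was higher in both fractions, more so in the rest, and enrichment changed by -1.01 (SE 0.22, limma adjusted p = 0.0136), while its other probe set gave 0.23 (limma adjusted p = 0.865). Without wild-type CNS replicate 1 or mutant rest replicate 1 it lost the call (adjusted p 0.0512 to 0.0521). The proneural factor genes neurog1 and neurod4 had 0.54 and 0.38. ascl1a, another proneural factor, was at 442, 510 and 425 in wild-type and 113, 169 and 129.6 in mutant CNS cells, with a change of -0.85 (SE 0.30, limma adjusted p = 0.161). Of 19 Delta-Notch genes 0 passed in limma (1 at an unadjusted p under 0.05), with the ligand gene dla at 0.16, dlb at 0.09 and dlc at -0.84.

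Genes of dividing cells mostly lay below 0, and 0 passed in limma's test of the difference. Of 47 DNA replication genes 46 lay below 0, with a median of -0.42 and a lowest value of -0.82, and 0 passed in limma (22 at an unadjusted p under 0.05). In wild type 44 of the 47 passed as higher in CNS cells, against 14.5% of all features, and in the mutant 3, against 6.49%. Of 44 mitosis genes 42 lay below 0 (median -0.40) and 0 passed, with 18 at an unadjusted p under 0.05. In wild type 36 of the 44 passed as enriched, against 14.5% of all features. In the mutant 9 did, against 6.49%. The median enrichment in the mutant was 0.27 for the replication and 0.26 for the mitosis genes. The lists thus differed in members past the threshold and hardly in their medians. mcm4, a subunit of the replicative helicase, was at 977, 716 and 825 in the rest and 1528, 1429.6 and 1248 in CNS cells of wild type. In the mutant it was at 734, 623 and 730 and 864, 741 and 906, and its change was -0.47 (SE 0.18, limma adjusted p = 0.227). cdk1, the mitotic kinase gene, read 314, 266 and 399 in the wild-type and 542, 621 and 777 in the mutant rest, with a change of -0.64 (SE 0.21, limma adjusted p = 0.137). Without wild-type rest replicate 3, 2 mitosis genes and 1 DNA replication gene passed as lower, and under the other settings up to 3 and 1. For comparison, the 25th and the 75th percentile over all features were -0.20 and 0.23.

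The 73 cytosolic ribosomal protein genes had 71 changes below 0, a median of -0.25 and 0 calls in limma (11 at an unadjusted p under 0.05). In CNS cells all 73 had every mutant array below every wild-type array, and in the rest 60 did, against 26.2% and 22.8% of all features. Their median mutant-minus-wild-type difference was -0.75 in CNS cells and -0.50 in the rest. rpl4 was at 9098, 7607 and 7579 in wild-type and 5158, 5005 and 5642 in mutant CNS cells and changed in enrichment by -0.36 (SE 0.17, limma adjusted p = 0.357). Respiratory chain genes (0 of 65, 1 at an unadjusted p under 0.05, median -0.07) and glycolysis genes (0 of 20, 3 unadjusted, median -0.12) made no call either.

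**Figure D5:**
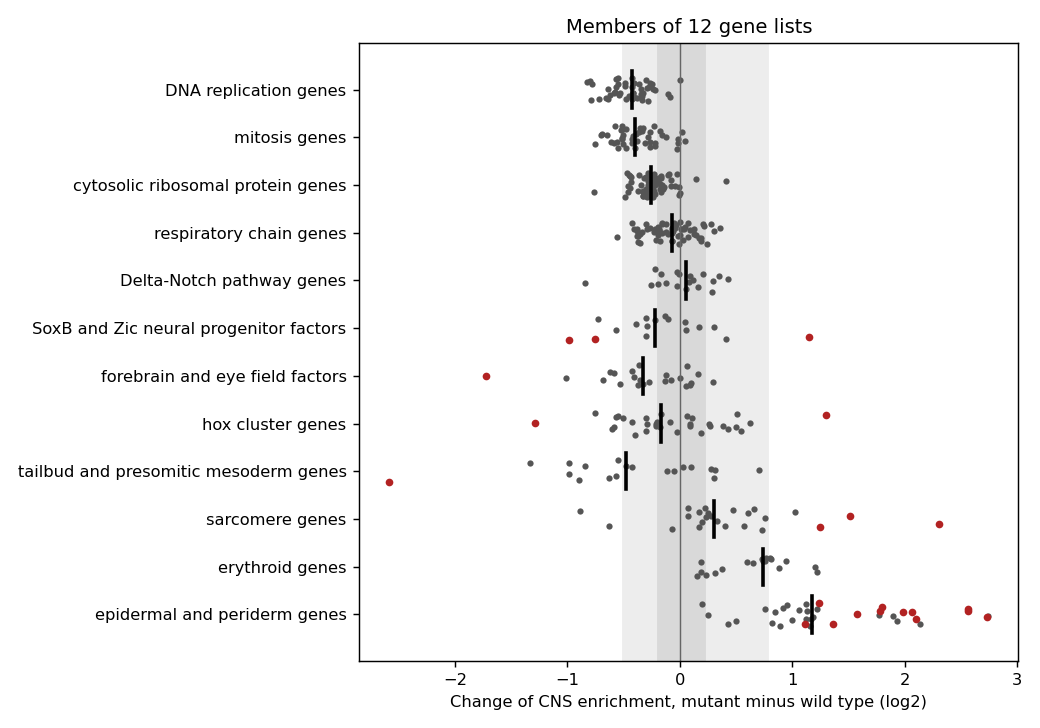
Change of CNS enrichment (log2) of each tested member of 12 gene lists, with the list's median as a bar and members past the threshold in red. The shaded bands run from the 25th to the 75th and from the 5th to the 95th percentile of all features, -0.20 to 0.23 and -0.51 to 0.78; replication, mitosis and ribosomal protein genes sit left of 0 within or near the bands, and epidermal genes all lie to the right.

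Stress genes made 1 call. Of 21 p53 and apoptosis genes 0 passed in limma (4 at an unadjusted p under 0.05), with the p53 target gene mdm2 at 0.38 (SE 0.22, limma adjusted p = 0.496) and ccng1 at -0.24 (SE 0.21, limma adjusted p = 0.694). Of 45 immediate early and heat shock genes 1 rose, against 2.27% of all features, and the median was -0.04. That gene was klf2b, a Krüppel-like factor, at 37.8, 72.1 and 58.2 in the wild-type rest and 16.8, 19.8 and 13.7 in wild-type CNS cells against 17.4, 27.9 and 22.2 and 34.7, 24.6 and 28.4 in the mutant, a change of 1.35 (SE 0.24, limma adjusted p = 0.00343). fosab and jun, whose products join in AP-1, had -0.23 and -0.17.

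Among 13 germ plasm and maternal genes 1 rose, against 2.27% of all features (median 0.48). Of the 13, 3 passed the filter on low values only through GFP-negative arrays. With no filter 0 of 23 rose and the median was 0.36. gdf3, a maternal Nodal-related ligand, was at 99.2, 72.3 and 79 in the wild-type and 40.6, 33.7 and 36.6 in the mutant rest, with a difference of 0.02 in CNS cells, and its change of 0.93 (SE 0.24, limma adjusted p = 0.0473) was lost without any 1 of 9 arrays (adjusted p 0.0705 to 0.143) and under 6 of 11 other settings. nanos3, a germ cell gene, was at 33.2, 3353 and 106 in the wild-type rest, with 1 array far above the others, and had a change of 1.51 (SE 1.31, limma adjusted p = 0.693).

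dicer1 itself had a lower mean in the mutant in both fractions. It read 187, 291 and 116 in the wild-type rest and 224, 259 and 252 in wild-type CNS cells, and 92.1, 117 and 71.4 and 110.1, 209 and 101 in the mutant. The lines were apart in CNS cells and overlapped narrowly in the rest. The mutant-minus-wild-type differences were -0.81 in CNS cells and -0.90 in the rest, and the change of enrichment was 0.10 (SE 0.37, limma adjusted p = 0.958). Whether its probe set lies at the mutated site is not given in the sources used here. drosha and dgcr8, whose products make the precursors that Dicer cuts, had -0.21 (SE 0.20, limma adjusted p = 0.714) and 0.13 (SE 0.25, limma adjusted p = 0.886). Of 6 tested microRNA machinery genes 0 passed, and 0 had an unadjusted p under 0.05 in limma.

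Reported targets of microRNAs were listed from the literature, that on mammals for miR-124. Of 28 miR-124 targets 4 rose, against 2.27% of all features, and 0 fell, against 0.304%, with a median of 0.17 and 21 above 0. These were tagln2, snai2, described above, and iqgap1 and f11r.1. iqgap1, a scaffold of the cytoskeleton, was at 21.5, 38.9 and 29.3 in wild-type and 207, 146 and 146 in mutant CNS cells and at 200, 242 and 303 and 304, 376 and 289.9 in the rest. Its CNS fractions were apart and its change was 1.62 (SE 0.29, limma adjusted p = 0.0031). f11r.1, a junctional adhesion molecule, went from 125, 182 and 129.8 to 502, 383 and 318 in CNS cells, with a difference of -0.07 in the rest and a change of 1.43 (SE 0.32, limma adjusted p = 0.0164) lost without any 1 of 3 arrays (adjusted p 0.0556 to 0.0604). All 4 were depleted from CNS cells in wild type, between -2.98 and -2.29. ptbp1a and ptbp1b, splicing repressor genes and established miR-124 targets in mammals, had -0.04 (SE 0.25, limma adjusted p = 0.98) and -0.23 (SE 0.22, limma adjusted p = 0.736), and ctdsp1, a phosphatase of the REST complex and likewise a target, 0.02 (SE 0.17, limma adjusted p = 0.985).

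Of 25 reported targets of miR-1 and miR-206, the muscle microRNAs, 4 rose and 1 fell, against 2.27% and 0.304% of all features. Their median was 0.18. The rises were tagln2, snai2, hand2 and tagln3b, of which tagln2 and snai2 are in the miR-124 list as well, and the fall was gja1b. tmsb4x, a thymosin that binds actin, had 0.18 (SE 0.19, limma adjusted p = 0.755), and met, a growth factor receptor, -0.40 (SE 0.23, limma adjusted p = 0.491).

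Of 6 tested miR-430 targets reported in zebrafish, 1 rose, against 2.27% of all features (median 0.52). Of the 6, 2 passed the filter on low values only through GFP-negative arrays. With no filter 1 of 8 rose and the median was 0.36. lft1, a secreted antagonist of Nodal signals, was at 35.8, 36.6 and 46.4 in the wild-type and 38.7, 30.4 and 36.6 in the mutant rest. CNS cells held 6.9, 3.2 and 10.1 in wild type and 78.6, 66.1 and 29.5 in the mutant, without overlap. Its change was 1.76 (SE 0.30, limma adjusted p = 0.00215). cxcl12a, the chemokine that guides germ cells, was at 288, 249 and 299 in the wild-type and 795, 559 and 624 in the mutant rest and had a change of -0.47 (SE 0.30, limma adjusted p = 0.563), and its scavenger receptor gene ackr3b had -0.22 (SE 0.27, limma adjusted p = 0.797).

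The remaining large falls belonged to no single tissue. glula, a glutamine synthetase, was at 406, 405 and 414 in wild-type and 169.6, 218 and 212 in mutant CNS cells against 552, 609 and 593 and 658, 710.1 and 763 in the rest. It was already depleted from CNS cells in wild type, and its change was -1.26 (SE 0.19, limma adjusted p = 0.00111). iscub, a scaffold of iron-sulfur cluster assembly, stood higher in the mutant rest instead, 495, 336 and 401 against 102, 132 and 60.9, with a smaller difference of 0.46 in CNS cells, and its change was -1.47 (SE 0.27, limma adjusted p = 0.00401).

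gulp1a, an adaptor for engulfment, went from 109, 111 and 102 to 9.1, 11.1 and 14.1 in CNS cells, a change of -1.75 (SE 0.28, limma adjusted p = 0.0016) with a difference of -0.42 in the rest. elovl4b, a fatty acid elongase, went from 122, 94.4 and 125 to 25, 22.7 and 25.2 in CNS cells, with a difference of -0.39 in the rest and a change of -1.29 (SE 0.28, limma adjusted p = 0.0137) that did not pass with a pseudocount of 1 (adjusted p 0.25). mllt3, a subunit of an elongation complex, was at 199, 157 and 153 in the wild-type and 392, 449.9 and 652 in the mutant rest, with a difference of -0.04 in CNS cells, and its change of -1.49 (SE 0.39, limma adjusted p = 0.0481) was lost without any 1 of 10 arrays (adjusted p 0.053 to 0.148). hmgb2a, a chromatin protein of dividing cells, was at 1949, 1492 and 1345 in wild-type and 1271, 876 and 941 in mutant CNS cells, which are apart, and at 941, 611 and 963 and 909, 1117 and 1214 in the rest. It changed by -1.0 (SE 0.26, limma adjusted p = 0.0434), lost without any 1 of 7 arrays (adjusted p 0.0669 to 0.155).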

How the data were processed

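The deposited values are intensity, 1 linear value per probe set and array of zebrafish Affymetrix arrays, made by the authors with MAS5 per the submitters' processing notes. Neither its version nor a scaling target or detection calls are stated in the sources used here, and the 2% trimmed means of the 18 arrays lay between 149.7 and 150.3. Total RNA was extracted with Trizol, and 100 ng was labelled with biotin, per the labels' protocols. Arrays give no counts, and their number limits the precision.

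Of 15617 probe sets, 115 controls were left out. Symbols came from the platform annotation: 10795 probe sets had 1 symbol, 135 several and 4572 none listed, and 10711 were found by gene ID in a RefSeq table, which updated 1 symbol. Probe sets without a single gene were fitted and entered the adjustment but were not named.

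Probe sets above the 40th percentile of an array on 3 or more of 18 arrays were kept (10704), and the brightest stood for a gene, which gave 9548 features. log2(intensity + 16) was fitted with limma 3.58.1 in R 4.3.3, with 1 mean per group over all 18 arrays, 12 residual degrees of freedom and an intensity trend. The two-sided p-values were adjusted by Benjamini-Hochberg over all features at 0.05, so every adjusted p is limma's. The test was checked on simulated data. Tables were made with Python 3.11.15 and pandas 2.3.3, figures with matplotlib 3.10.9.

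The members, the 31 gene lists and the rules were chosen with earlier results of these data known. Lists were described by counts and medians, with no set test. The named genes were the 12 largest rises and 12 largest falls with an adjusted p under 0.05, a proper symbol and a group mean of at least 100, up to 4 members per list and direction with the smallest adjusted p, the first 3 measured members of each list, genes that passed in opposite directions in the lines, dicer1, drosha and dgcr8, and the first 3 markers of each cell type. Alternatives were a replicate block, pseudocounts of 1 and 64, no filter, a filter at the 60th percentile, median centring, quantile normalization, the 12 arrays alone, no trend, array weights, every probe set, and leaving out each of the 12 arrays.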

Additional observations from a re-analysis of the deposited data

Results flagged for a closer look

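A change of CNS enrichment is by construction a difference between the lines under the same contrast, tested by limma's interaction term. Of the named genes 58 passed at an adjusted p of 0.05, and each value below is that change on the log2 scale, mutant minus wild type. All were described above, and no explanation was tested.

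The rises came from several tissues. Among skin and junction genes, the changes were cldni (2.73), gpa33a (2.56), tp63 (2.56), cdh1 (2.06), krt8 (1.80) and f11r.1 (1.43). Cytoskeletal, matrix and membrane genes were pfn1 (2.93), postnb (2.51), tagln2 (2.42), cavin2b (2.19), ccn2a (2.10), col1a1a (1.93), iqgap1 (1.62), mmp2 (1.14) and tagln3b (0.85). Blood cell genes were mmp13a (3.77), spi1b (2.41), lcp1 (1.86), ncf1 (1.66) and cebpa (1.51). Heart and muscle genes were myh7 (2.30), nkx2.7 (2.19), cmlc1 (1.97), myl7 (1.66), acta1a (1.52), hand2 (1.42) and tnnt2a (1.25). Neural crest, neural and axial factors were isl1a (1.98), sox10 (1.49), irx7 (1.48), snai2 (1.44), foxd3 (1.44), isl2a (1.34), hoxc8a (1.30) and sox1a (1.15). Genes whose enrichment turned from below to above 0 in both tests were ptgs2a (1.92), podxl (1.70), thbs1b (1.54), tmc6b (1.44) and gpm6ab (1.36). Signal and other genes were lft1 (1.76), klf2b (1.35) and gdf3 (0.93).

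Falls with the larger part of the difference in the rest were vox (-1.90), hoxa9b (-1.29), mllt3 (-1.49), iscub (-1.47), tubb5 (-1.01) and cdh2 (-0.75). Those with the larger part in CNS cells were aldh1a2 (-2.58), gja1b (-2.27), gulp1a (-1.75), rx2 (-1.72), elovl4b (-1.29), glula (-1.26), tbx2b (-1.20), hmgb2a (-1.0) and nr2e1 (-0.99).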

How the results depend on the processing

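The 58 named genes that passed were refitted under 23 alternatives, which gave 1330 values. Of these 1197 kept their direction and passed, 133 kept their direction and did not pass, and 0 changed direction, and 33 genes passed under every alternative that tested them. A pseudocount of 64 shrank 23 of the 58 changes by over 1.5 times and a pseudocount of 1 enlarged 5, so sizes are bound to the pseudocount where a group is dim. The total of 246 features became 380 with a replicate block (64 lower) and lay at 141 to 317 when 1 array was left out, with 123 to 274 higher and 17 to 43 lower. Residuals of arrays with the same replicate number correlated at 0.181, 0.003 and -0.086 in wild type and at 0.104, 0.275 and 0.297 in the mutant, and 4 of 6 pairs correlated best with their own number, so the numbers were not taken as pairing the arrays. The 29 lower features became 15 with a pseudocount of 1, 46 with 64, 46 with arrays centred on medians, 52 with the 12 arrays alone and 64 with array weights. Centring gave 80.4% of calls higher in place of 88.2% and moved the median of all features to -0.08. The mutant enrichment went from 1482 to 2411 with array weights and to 1125 to 1594 when 1 array was left out, and the wild-type enrichment from 3129 to 2480 to 3062. The median change of the SoxB and Zic list ranged from -0.31 to 0.05 over the alternatives with all arrays, and that of the miR-430 target list from -0.22 to 0.84. The Delta-Notch median ranged from -0.03 to 0.07, the myogenic from -0.22 to 0.03 and the pronephric from -0.35 to 0.14. With 1 array left out, the hox median ranged from -0.22 to 0.01 and that of the p53 list from -0.01 to 0.32. None of these lists has a settled direction. The causes of these shifts were not tested. With 3 arrays a group, changes near the threshold depend on single arrays, and no detection call separates dim genes from background.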

Other observations

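Lists of other tissues of the embryo gave 0 calls. Of 18 notochord and hatching gland genes 0 passed in limma (4 at an unadjusted p under 0.05), with a median change of 0.25 and 14 above 0. Of the 18, 2 passed the filter on low values only through GFP-negative arrays. shha, a signal of notochord and floor plate, had a change of 0.08, and foxa2, a factor of floor plate and endoderm, 0.00. Of 9 endoderm, liver and yolk genes, 5 of which passed the filter on low values only through GFP-negative arrays, 0 passed the test (3 at an unadjusted p under 0.05), with a median of 0.38 and foxa3, a factor of gut and liver, at 0.58. foxa1, a related factor, was lower in both mutant fractions by similar amounts, -1.31 in CNS cells and -1.45 in the rest, and its change of enrichment was 0.14. Of 6 pronephric kidney genes 0 passed (1 at an unadjusted p under 0.05), with pax2a, a factor of kidney and midbrain-hindbrain boundary, at -0.54 and cdh17, a kidney cadherin, at 0.40. Of these 6, 3 passed the filter only through GFP-negative arrays, and with no filter the median of 10 was -0.11.

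A large difference between the lines did not by itself change the enrichment. hk1, a hexokinase of glycolysis, differed by -0.87 in CNS cells and -0.87 in the rest, and its change of enrichment was 0.00. dlb, a Notch ligand, differed by 1.18 and 1.09, with a change of 0.09. dgcr8, a partner of drosha in precursor processing, differed by -0.91 and -1.04, with a change of 0.13.

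Of the 2717 features without a single gene, 54 passed, 48 higher and 6 lower, and they are not named here.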
